A study of Mus musculus with 36 samples.

Results

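The interleukins and their receptors were taken as all rows of the expression table whose gene symbol begins with Il followed by a digit, which gave 53 of the 18760 named genes used. By role they are 16 secreted ligands, 2 soluble inhibitors (the IL-1 receptor antagonist Il1rn and the IL-18 binding protein Il18bp), 32 receptor chains and 3 decoy receptors. Bulk RNA sequencing had been done on C57BL/6 wild-type mice, matched for age and sex, that all carried tumors of MC38, a mouse colon carcinoma line. One group had received high doses of antibodies to PD1 and to CTLA4, receptors that restrain T cells (immune checkpoint blockade, ICB), and the other control IgG. Flash-frozen tumor, lung, kidney, liver, skeletal muscle and heart gave 3 ICB and 3 IgG libraries per tissue, 36 in all. Every group bore tumors, so no library shows a tumor-free organ.

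Interleukins are short-range signals between immune cells and between immune and tissue cells, and each acts through particular receptor chains. Ligands of the IL-1 family (Il1a, Il1b, Il18, Il33, Il1f9) signal through paired receptors of the same family and the adaptor MyD88, while most other members use chains that several cytokines share, such as Il2rg (the common gamma chain), Il6st (gp130) and Il10rb, and signal through JAK kinases and STAT factors. Several arms are held in check by decoys, among them Il1r2, which binds IL-1 without signaling, and Il13ra2, which captures IL-13.

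Whole reads recovered from the deposited values came to between 19005189 and 25512980 per library, and the 53 genes together held 0.0515% to 0.249% of them. Each organ had the highest sum of its own markers. The summed hepatocyte markers, for example, were at 68630 FPKM or more in every liver library and at 662 or less in every library of the other tissues, and the summed kidney tubule markers were at 3359 FPKM or more in kidney and at 5.36 or less elsewhere. FPKM, the unit of all levels here, are fragments scaled to the length of the gene and to the size of the library, with normalization factors that the authors applied. Markers of surrounding tissue stood out in 2 tumor libraries. The summed skeletal muscle markers were at 317 FPKM in ICB replicate 2 and at 13.3 or less in the other 5 tumors, and the fat cell markers were at 55.4 and 51.4 FPKM in ICB replicates 2 and 3 and at 8.15 or less in the others. Whether the 3 libraries of a group stand for 3 mice is not stated in the labels, and p-values therefore reflect how much these samples vary, a spread that may include technical error. In bulk tissue, fewer cells of a type and less RNA per cell cannot be told apart.

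Lung was most often the tissue with the highest level of a gene of this family. A filter of at least 1 FPKM in at least 3 of a tissue's 6 libraries was passed by 35 of the 53 genes in lung, 34 in tumor, 24 in liver, 21 in kidney, 20 in muscle and 18 in heart. Of the 46 genes that passed it in at least 1 tissue, 20 (43.48%) had their highest mean in lung, against 17.8% of all 16123 genes tested in the same way. Tumor and liver were each the highest tissue of 10 genes, kidney of 3, heart of 2 and muscle of 1. The other 7 genes stayed under the filter everywhere: the ligands Il7 and Il10, and Il9r, Il12rb2, Il20rb, Il22ra2 and Il31ra. Their highest tissue means lay between 0.28 FPKM (Il12rb2, lung) and 0.844 FPKM (Il20rb, lung). In all 6 tissues 12 genes passed, and 15 passed in a single tissue.

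Each tissue was then tested against the mean of the other 5, in 1 limma fit of all 36 libraries on log2(FPKM + 1) with Benjamini-Hochberg adjustment over all genes tested and a threshold of 0.05. In lung 27 of the 46 genes were higher and 9 lower, where 34.1% of all genes were higher and 45.9% lower. In tumor 20 were higher and 21 lower (38.6% and 47.4% of all genes), and in liver 17 and 20 (34% and 47.6%). Few were higher in kidney (6 higher and 30 lower, against 33% and 44.4%), in heart (7 and 30, against 27.7% and 50.2%) and in muscle (5 and 31, against 31% and 49.8%). These splits depend on how the libraries are put on 1 scale. With plain library totals, an alternative added after the data were seen, 35 were higher and 4 lower in lung, and 25 and 12 in tumor. In liver 9 were higher and 29 lower. The median difference of all genes moved the same way, by 0.58 in lung, 0.54 in tumor and -0.66 in liver. Shares of all genes called were not worked out under that scaling, so these counts cannot be set against a background. The same tissue was highest under library totals for 41 of the 46 genes. The exceptions were Il15ra, Il17rc and Il34 (then tumor), Il17rb (kidney) and Il6ra (lung).

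**Figure D1:**
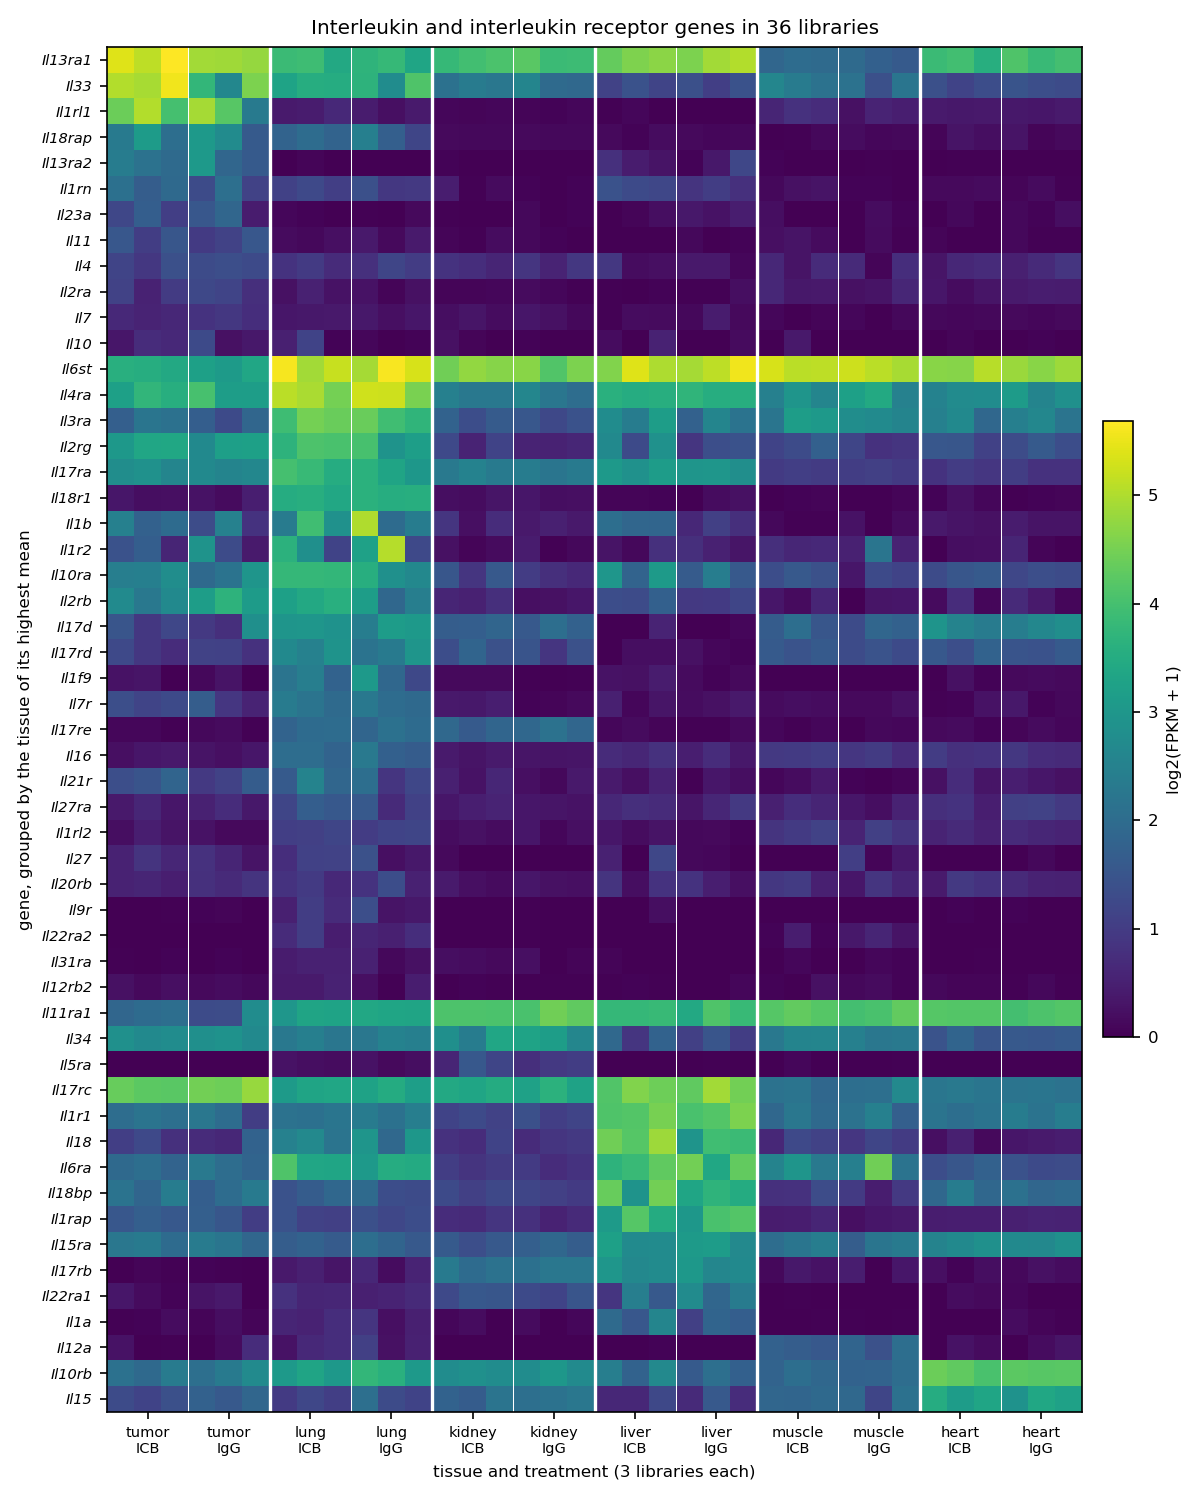
Level of each of the 53 genes in every library, as log2(FPKM + 1) by colour. Columns are libraries, 3 per tissue and treatment with ICB left of IgG, and genes run down the page by the tissue of their highest mean; the block of 20 tested genes with lung as the highest tissue, plus 5 untested ones, is the largest.

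In the IL-1 family some ligands peaked in the tissue of their receptor and others did not. Il33, an alarm signal released from damaged cells, and Il1rl1 (ST2), its receptor, were both highest in tumor. The 6 tumor libraries ran from 5.21 to 46.4 FPKM of Il33 (median 26.2), against 5.83 to 16.2 FPKM (median 10.5) in lung, the next tissue, so the libraries overlapped although the difference passed (log2 difference 0.94 ± 0.23, SE, n = 6 libraries per tissue as for all differences between tissues, limma adjusted p = 0.000484). Il1rl1 was the gene with the largest difference of the tumor against the other tissues (3.85 ± 0.18). It ran from 4.001 to 31.6 FPKM (median 18.8) in tumor, against 0.196 to 0.741 FPKM (median 0.493) in muscle, the next tissue, and 0 to 0.0709 FPKM in liver, the lowest. The tumor libraries did not overlap with those of any other tissue.

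Il18, which drives interferon-gamma production by lymphocytes, and its soluble inhibitor Il18bp were both highest in liver, with 6.72 to 28.0 FPKM (median 15.7) of Il18 there against 2.81 to 7.04 FPKM (median 5.003) in lung. Of all these genes Il18 had the largest difference of liver against the other tissues (2.88 ± 0.15, adjusted p = 1.9e-16). Il18bp had 6.52 to 21.1 FPKM (median 11.1) in liver against 2.24 to 4.22 FPKM (median 3.26) in tumor, without overlap. Its ligand-binding receptor chain Il18r1 was a lung gene instead. Lung held 9.56 to 11.3 FPKM (median 10.7) of Il18r1, against 0.12 to 0.388 FPKM (median 0.198) in tumor, the next tissue, a ratio of means of 48.1 and the largest lung difference (3.38 ± 0.04, adjusted p = 3.07e-31). The second chain of the IL-18 receptor, Il18rap, had 2.06 to 7.66 FPKM (median 4.82) in tumor and 1.27 to 4.48 FPKM (median 2.49) in lung. Its levels overlapped between tumor and lung, the difference passed (0.65 ± 0.18, adjusted p = 0.00193), and no library of the other 4 tissues exceeded 0.234 FPKM. The tumors held the second chain at 4.96 FPKM on average and the ligand-binding chain at 0.22 FPKM.

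The receptor for IL-1 itself was a liver gene. Il1r1 had 15.6 to 22.5 FPKM (median 16.9) in liver, against 3.29 to 4.40 FPKM (median 3.52) in lung, and the accessory chain Il1rap averaged 12.4 FPKM in liver against 1.89 FPKM in tumor, both without overlap. The ligand Il1a also peaked in liver (2.62 FPKM on average, against 0.508 in lung), with the proviso that 11.2% of its exonic bases overlap a gene on the opposite strand and that the strand setting of the counting is not given in the sources used here. Il1b, the secreted form made by activated myeloid cells, and the decoy Il1r2 peaked in lung, but with a wide spread. Il1b in lung had 4.15, 14.4 and 6.33 FPKM in the ICB libraries and 31.3, 2.95 and 4.19 FPKM in the IgG libraries. Il1r2 in lung had 11.5, 6.10 and 1.198 FPKM with ICB and 8.56, 32.3 and 1.40 FPKM with IgG. One IgG library led each gene, replicate 1 for Il1b and replicate 2 for Il1r2. The summed neutrophil markers were at 1010, 1159 and 356.2 FPKM in the ICB lungs and at 2502, 1731 and 150.3 FPKM in the IgG lungs. They were high in IgG replicates 1 and 2 and lowest in replicate 3 of both groups. Il1r2 was also lowest in replicate 3 of both groups. Il1b was not: it was lowest in IgG replicate 2 (2.95 FPKM) and in ICB replicate 1 (4.15 FPKM). The part of neutrophils in these values was not tested.

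Il1f9 (also named Il36g, an IL-36 ligand of epithelia and myeloid cells) and Il1rl2, the IL-36 receptor, were both highest in lung. Il1f9 averaged 3.63 FPKM there against 0.173 FPKM in liver, without overlap, while Il1rl2 averaged 1.16 FPKM against 0.893 FPKM in muscle, with overlap. The antagonist Il1rn was highest in tumor (2.36 FPKM on average, against 1.18 in lung).

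Of these receptors 6 lie side by side on chromosome 1, in a stretch of 467 kb (GRCm38.p6), and neighbours there did not share their highest tissue. All of them but Il1rl1 passed the filter in lung. In chromosomal order Il1r2 (40084692 to 40125230) was highest in lung, Il1r1 (40222480 to 40316201) in liver, Il1rl2 (40324589 to 40367555) in lung, Il1rl1 (40404864 to 40465418) in tumor, Il18r1 (40465552 to 40500854) in lung and Il18rap (40515362 to 40551707) in tumor. Only 133 bases separate the end of Il1rl1 from the start of Il18r1, which is the sharpest contrast of the stretch: Il1rl1 averaged 19.5 FPKM in tumor and 0.353 in lung, and Il18r1 averaged 10.6 FPKM in lung and 0.22 in tumor. The 130 bases before annotated starts of these genes (RefSeq, GRCm38.p6, plus strand) are shown because they are the sequence next to starts with such different tissue patterns, and 130 bases are what the gap between Il1rl1 and Il18r1 allows. Capitals mark matches on either strand to the GATA factor motif AGATAA, which reads TTATCT from the other strand, or to the CCAAT box, whose letters from the other strand are ATTGG. The promoter set used holds 2 starts of Il1rl1 and 3 of Il18r1, and gene-level values do not say which start was used. Both Il1rl1 windows lie inside the gene as given above, which begins at 40404864, and no window at that position is shown. Of Il18r1 only the first window is shown, since only that one lies wholly in the gap before the gene.

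Il1rl1 start 1, chr1:40429440-40429569: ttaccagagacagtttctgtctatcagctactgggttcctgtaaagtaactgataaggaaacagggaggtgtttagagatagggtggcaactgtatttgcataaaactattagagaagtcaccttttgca

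Il1rl1 start 2, chr1:40439499-40439628: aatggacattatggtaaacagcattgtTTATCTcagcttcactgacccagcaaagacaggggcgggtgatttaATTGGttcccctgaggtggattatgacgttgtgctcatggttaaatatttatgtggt

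Il18r1 start 1, chr1:40465422-40465551: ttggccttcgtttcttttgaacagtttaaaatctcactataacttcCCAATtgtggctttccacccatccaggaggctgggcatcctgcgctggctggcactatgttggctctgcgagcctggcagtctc

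Il18rap, chr1:40515232-40515361: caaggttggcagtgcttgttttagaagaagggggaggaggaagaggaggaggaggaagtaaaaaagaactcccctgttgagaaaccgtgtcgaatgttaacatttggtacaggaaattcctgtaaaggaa

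The second start of Il1rl1 holds both motifs, the first start of Il18r1 holds CCAAT and its other 2 hold no match, and the first start of Il1rl1 and the start of Il18rap hold none of the 5 motifs searched (these, the AP-1 motif, the TATA motif and the interferon-stimulated response element). Among 32851 RefSeq promoter windows of the same length, AGATAA occurs in 4.79% and CCAAT in 22.4%. The AP-1 motif TGANTCA occurs in 3.7%, the TATA motif TATAAA in 6.83% and the interferon-stimulated response element in 1.35%, all on both strands. RefSeq windows were found for 41 of the 53 genes (55 starts), of which 6 hold the GATA motif, 10 the CCAAT box, 6 the AP-1 motif, 4 the TATA motif and 0 the interferon-stimulated response element. These matches describe the letters and not a bound site.

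**Figure D2:**
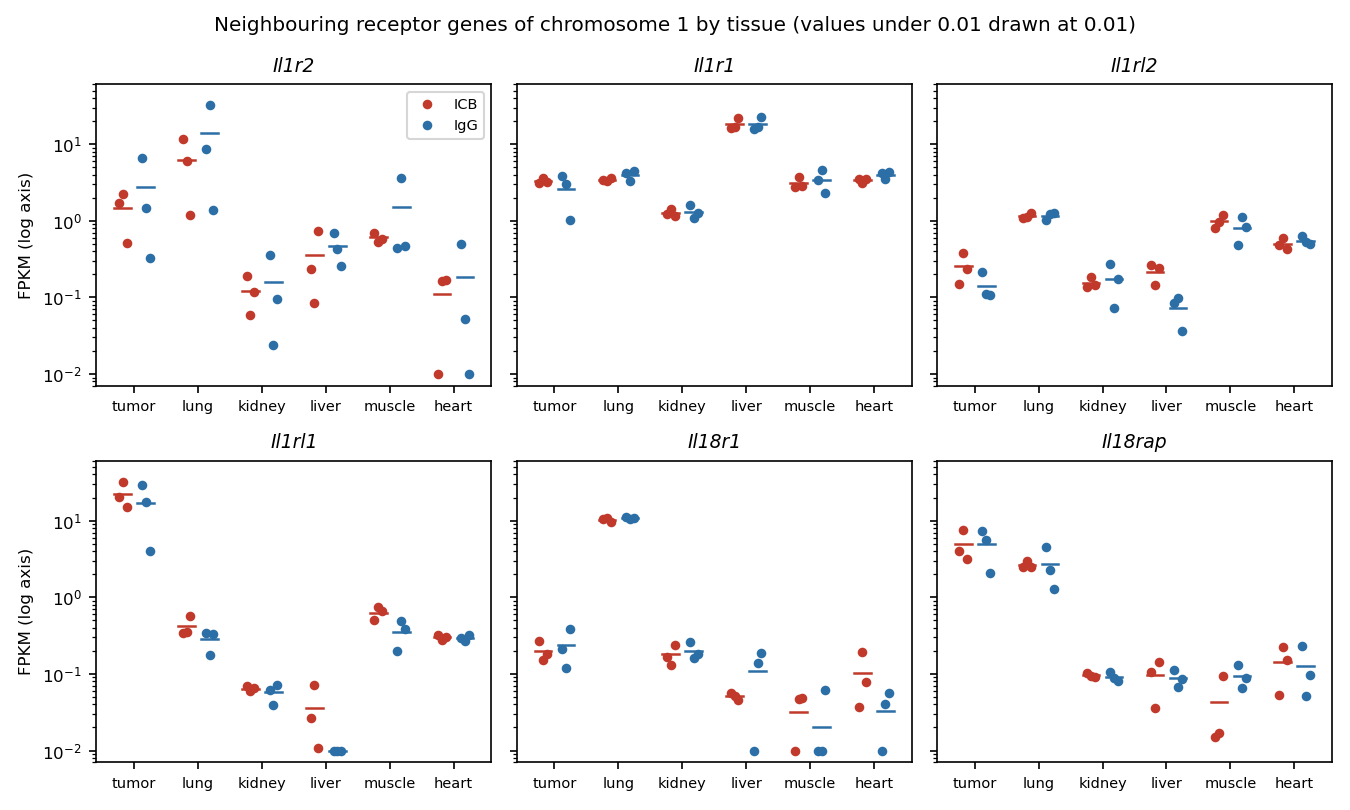
FPKM on a log axis of the 6 neighbouring receptor genes, in chromosomal order, by tissue, with ICB in red left of IgG in blue; points are libraries, bars are means of 3, and values under 0.01 are drawn at 0.01. Il1rl1 sits between 4.001 and 31.6 FPKM in tumor and Il18r1 between 9.56 and 11.3 FPKM in lung, and each is under 1 FPKM in all other tissues.

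Of the chains shared by several cytokines, Il6st and Il10rb passed the filter in all 6 tissues. Il6st (gp130), which carries the signal of IL-6, IL-11 and related cytokines, was the most abundant member in lung, kidney, liver, muscle and heart, with tissue means of 22.5 to 38.2 FPKM. On the authors' scaling the tumor stood apart with 7.58 to 11.1 FPKM (median 9.53), below every library of every organ. Library totals moved the median difference of all genes by 0.54 in tumor and -0.66 in liver. Whether tumor and organ libraries stay apart for Il6st under that scaling was not worked out. Il11, which acts through Il6st and Il11ra1, was instead highest in tumor. It had 0.958 to 1.91 FPKM (median 1.53) there against 0.0959 to 0.332 FPKM (median 0.151) in lung, the next tissue. Its receptor Il11ra1 was lowest in tumor, at 2.93 FPKM on average against 8.70 in lung and 17.1 in kidney. The Il11ra1 value is uncertain, since 46.3% of the 50-base words of its transcripts also occur in the near-identical copies Il11ra2 and Gm13305. The ligand-binding chain of the IL-6 receptor, Il6ra, averaged 15.5 FPKM in liver and 10.5 FPKM in lung, a difference that did not pass (0.52 ± 0.25, adjusted p = 0.0613). A muscle library, IgG replicate 2, had 21.0 FPKM of Il6ra where the other 5 had 3.49 to 6.82.

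The common gamma chain Il2rg and its partners, which serve lymphocytes, were mostly lung and tumor genes. Il2rg averaged 12.2 FPKM in lung and 7.999 in tumor (0.51 ± 0.21, adjusted p = 0.0293), with the limit that 27.5% of its 50-base words also occur in the overlapping gene Gm20489. Il2rb, the chain through which IL-2 and IL-15 signal, averaged 7.40 FPKM in lung and 7.05 in tumor, and the 2 tissues did not differ beyond their spread (0.02 ± 0.16, adjusted p = 0.931). Il7r averaged 3.38 FPKM in lung, above 1.30 in tumor, and Il21r 2.46 against 1.69, with overlap. The ligand Il15 was a heart gene, with 6.45 to 10.5 FPKM (median 8.85) in heart against 2.15 to 3.77 FPKM (median 3.29) in kidney, without overlap (1.24 ± 0.17, adjusted p = 1.61e-07). Its presenting receptor Il15ra averaged 6.74 FPKM in liver and 5.59 in heart, which did not differ beyond the spread (adjusted p = 0.108).

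Among receptors for type 2 cytokines, Il4ra was highest in lung, Il13ra1 in tumor and Il5ra in kidney. Il4ra, the chain through which IL-4 and IL-13 both signal, had 21.6 to 37.5 FPKM (median 31.6) in lung against 10.5 to 12.2 FPKM (median 10.8) in liver, without overlap. Il13ra1, its partner for IL-13, was the most abundant member in tumor with 26.7 to 50.3 FPKM (median 31.2), against 19.2 to 31.7 FPKM (median 24.0) in liver, with overlap (0.45 ± 0.11, adjusted p = 0.000764). The decoy Il13ra2 averaged 3.78 FPKM in tumor and 0.49 in liver, without overlap. The ligand Il4 was low everywhere and highest in tumor (1.37 FPKM). Il3ra, which pairs with the common beta chain to bind IL-3, had 12.1 to 21.5 FPKM in lung against 3.62 to 8.02 FPKM in muscle, and Il5ra, the IL-5 receptor chain, passed the filter in kidney alone, with 0.508 to 1.96 FPKM there and 0.206 or less elsewhere.

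The IL-10 receptor chains also separated. Il10ra, the ligand-binding chain of immune cells, averaged 10.1 FPKM in lung against 4.64 in tumor, while Il10rb, which IL-22 and other cytokines share, had the largest heart difference (1.77 ± 0.10, adjusted p = 2.54e-15), with 15.6 to 20.1 FPKM (median 17.8) in heart against 7.22 to 12.7 FPKM (median 8.20) in lung and with 13.9% of its 50-base words shared with other genes. Il22ra1, the epithelial partner that gives IL-22 its target cells, averaged 3.30 FPKM in liver and 1.62 in kidney. Among the IL-12 cytokines, Il12a, a subunit of IL-12 and IL-35, was the one member highest in muscle, with 1.67 to 3.14 FPKM (median 2.30) there against 0.185 to 1.10 FPKM (median 0.505) in lung, without overlap. Il23a, the IL-23 subunit, averaged 1.59 FPKM in tumor and 0.181 in liver. In the IL-17 receptor family, Il17rb, the IL-25 receptor, had 5.13 to 7.21 FPKM (median 5.55) in liver and 2.97 to 4.09 FPKM (median 3.57) in kidney, and had the largest kidney difference (1.44 ± 0.07, adjusted p = 1.67e-17). Il17rc averaged 21.5 FPKM in liver and 20.7 in tumor, which did not differ beyond the spread (adjusted p = 0.711), and Il17ra, with which it forms the IL-17A receptor, averaged 11.0 FPKM in lung and 6.85 in liver. Il17re averaged 2.90 FPKM in lung and 2.71 in kidney and 0.0842 or less in every other tissue, and Il17rd averaged 5.15 FPKM in lung against 1.92 in heart, without overlap. The ligand Il17d averaged 6.61 FPKM in lung and 5.204 in heart (adjusted p = 0.251).

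Of the genes not yet described, Il16, a chemoattractant for CD4+ cells, averaged 2.86 FPKM in lung against 0.909 in muscle, without overlap, with 15.5% of its 50-base words shared with overlapping or similar genes. Il27 averaged 0.851 FPKM in lung and 0.551 in tumor (adjusted p = 0.283), and its receptor chain Il27ra 1.53 FPKM in lung and 0.843 in heart. Il2ra (CD25), the high-affinity IL-2 receptor chain of regulatory and activated T cells, averaged 0.982 FPKM in tumor and 0.35 in muscle, with overlap. Il34, a ligand of the macrophage receptor Csf1r, averaged 6.92 FPKM in kidney and 5.91 in tumor (adjusted p = 0.371).

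The genes with the highest levels differed in how far their tissues lay apart. Mean FPKM of Il33 in the other tissues were 3.64 in kidney, 3.55 in muscle, 1.53 in heart and 1.42 in liver. Il4ra averaged 10.5 FPKM in tumor, 6.56 in muscle, 5.83 in heart and 4.05 in kidney, and Il3ra 4.81 in liver, 4.34 in heart, 2.60 in tumor and 1.83 in kidney. So Il4ra and Il3ra were above 1 FPKM in every tissue, with lung on top.

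Il13ra1 averaged 14.7 FPKM in kidney, 13.9 in heart, 11.95 in lung and 2.65 in muscle. Il17rc averaged 9.67 FPKM in kidney, 8.80 in lung, 3.63 in heart and 3.57 in muscle. Muscle was thus the lowest tissue of both. Il11ra1 averaged 17.1 FPKM in muscle, 16.5 in heart and 13.02 in liver, and Il6ra 7.42 in muscle, 3.01 in tumor, 1.74 in heart and 0.872 in kidney. Il10rb averaged 6.04 FPKM in kidney, 3.87 in tumor, 3.32 in liver and 2.74 in muscle.

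The genes with the largest difference of muscle, kidney and liver had these means in the tissues not given above. Il12a averaged 0.164 FPKM in tumor, 0.125 in heart and 0.00725 in liver, and had 0 reads in all 6 kidney libraries. Il17rb averaged 0.357 FPKM in lung, 0.204 in muscle, 0.134 in heart and 0.0245 in tumor. Il18 averaged 1.13 FPKM in tumor, 1.04 in muscle, 0.831 in kidney and 0.281 in heart. Il12a was under 1 FPKM in every library outside muscle and lung, and Il17rb in every library outside liver and kidney, while Il18 also passed the filter in lung, tumor and muscle.

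The second question was whether ICB and IgG libraries of a tissue differed. No interleukin or receptor gene passed the threshold in any tissue with limma on the 3 ICB and 3 IgG libraries, out of 34 tested in tumor, 35 in lung, 21 in kidney, 24 in liver, 20 in muscle and 18 in heart. Almost no gene of any kind passed: 0% of all genes tested in tumor, lung, liver, muscle and heart and 0.0168% in kidney. Limma-voom on the recovered reads also called 0 of these genes in each tissue. At an unadjusted p under 0.05 there were 5 in tumor (14.7%, against 6.87% of all genes), 2 in lung (5.71%, against 4.35%), 1 in kidney (4.76%, against 3.71%), 5 in liver (20.8%, against 3.37%), and 0 in muscle and heart (against 5.33% and 4.54%). The median log2 difference, ICB minus IgG, was 0.09 in tumor, 0.05 in lung, 0.04 in kidney, 0.06 in liver, 0.11 in muscle and 0.01 in heart, and between -0.02 and 0.00 for all genes. The following values are therefore descriptions of genes that did not pass.

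**Figure D3:**
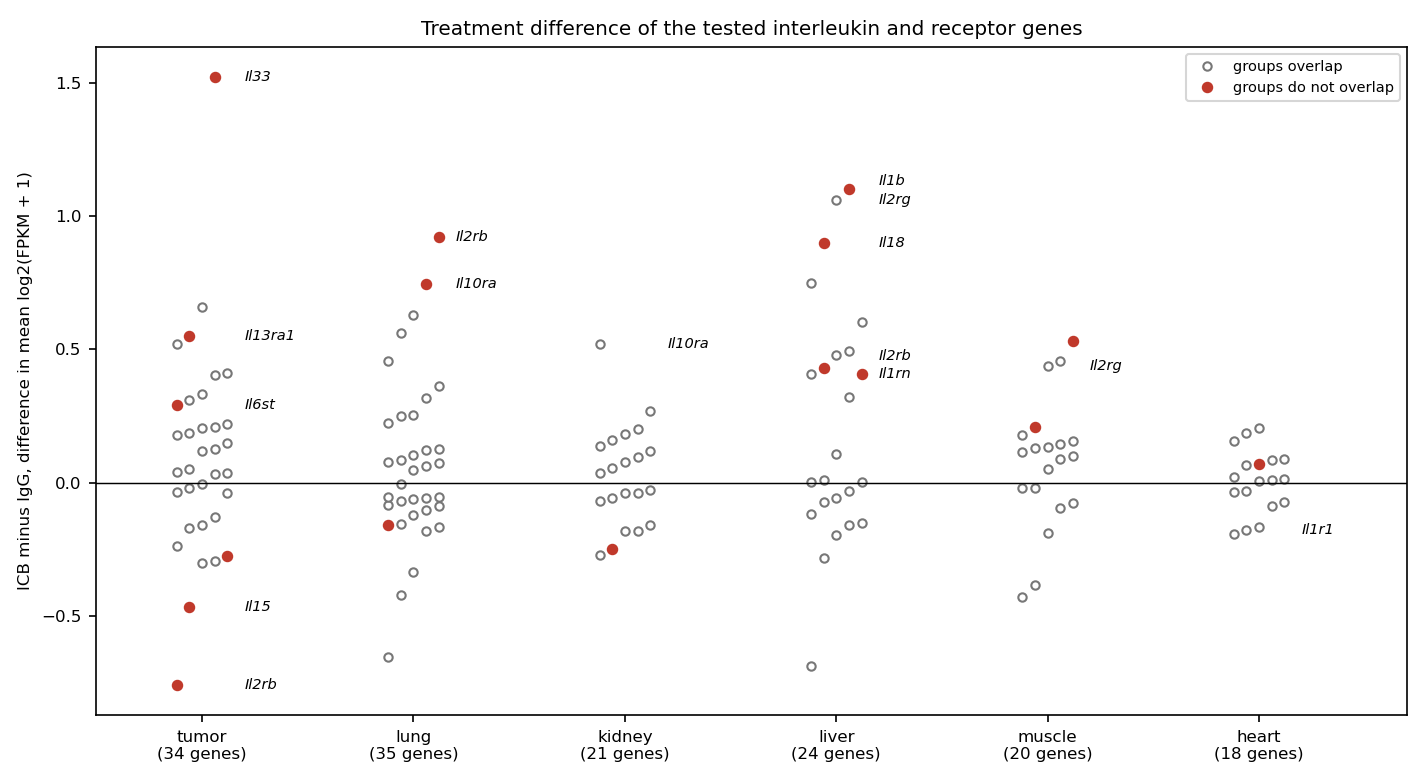
ICB minus IgG difference in mean log2(FPKM + 1) of each tested gene in its tissue. Filled points are genes whose 3 ICB and 3 IgG libraries do not overlap and open points those that overlap; names mark genes with an unadjusted p under 0.05 and the smallest p of each tissue. Il33 in tumor (1.52) is the largest difference and none passed the adjusted threshold.

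Counts of genes whose groups do not overlap are given here among the genes over the filter in that tissue. In the tumor, 6 tested genes had ICB libraries that did not overlap with the IgG libraries, 3 above and 3 below, where 5.65% of all genes lay above and 7.49% below. Il33 had 31.5, 29.6 and 46.4 FPKM in ICB tumors, against 12.5, 5.21 and 22.8 FPKM in IgG tumors. All 3 ICB values lay above the IgG values, with IgG replicate 2 the lowest tumor of all (1.52 ± 0.46 on the log2 scale, limma adjusted p = 0.692; here and in later within-tissue values, SE with n = 3 libraries each). The summed fibroblast markers, a cell type that can express Il33, were at 457.6, 401.9 and 410.1 FPKM in the ICB tumors and at 280.2, 134 and 604.5 FPKM in the IgG tumors. The sums overlapped, while all 6 markers had a higher mean log2 level with ICB. The part of fibroblasts was not tested. Without ICB replicate 2, the library with muscle RNA, the Il33 difference was 1.64. When all 36 libraries shared 1 estimate of the spread, Il33 passed (limma adjusted p = 0.0154), and was then the only one of the 34 that did. The share of all genes that passed in that fit was not worked out, so how unusual Il33 was there is not known.

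Il13ra1 had 41.7, 33.7 and 50.3 FPKM in ICB tumors, against 28.7, 28.4 and 26.7 FPKM in IgG tumors (0.55 ± 0.15, adjusted p = 0.692). Every ICB tumor was above every IgG tumor. Il6st had 11.1, 10.6 and 9.78 FPKM with ICB, against 8.31, 7.58 and 9.28 FPKM with IgG (0.29 ± 0.11, adjusted p = 0.697), again without overlap.

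Il2rb had 5.58, 3.83 and 5.45 FPKM in ICB tumors, against 7.92, 11.9 and 7.67 FPKM in IgG tumors (-0.76 ± 0.19, adjusted p = 0.692). All ICB values were below all IgG values. The summed markers of NK cells, which carry this chain, were at 34.0, 21.8 and 22.2 FPKM in ICB tumors and at 44.2, 68.5 and 30.8 FPKM in IgG tumors. All 8 of those markers had a lower mean log2 level with ICB, and none was at 0 in every library. T cell markers went the other way, with all 9 higher in mean log2 level with ICB. They summed to 4.9 to 10.16 FPKM in ICB tumors and to 5.435 to 6.522 FPKM in IgG tumors. In tumor 3 of the 9 T cell markers and 4 of the 8 NK cell markers passed the filter. The part of either cell type was not tested. The ligand Il15 had 1.44, 1.22 and 1.62 FPKM with ICB, against 2.40, 2.02 and 2.66 FPKM with IgG (-0.47 ± 0.13, adjusted p = 0.692), also without overlap, and Il17rc had a difference of -0.28 ± 0.13.

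In lung, 2 tested genes had all ICB libraries above (4.5% of all genes) and 1, Il11ra1, had them below (-0.16 ± 0.14; 4.14% of all genes). Il2rb lay the other way than in tumor, with 8.42, 9.80 and 11.1 FPKM in ICB lungs, against 7.99, 2.74 and 4.36 FPKM in IgG lungs (0.92 ± 0.30, adjusted p = 0.988). The groups did not overlap, though IgG replicate 1 came within 0.5 FPKM of the lowest ICB library. The NK cell markers summed to 40.6, 67.3 and 80.2 FPKM with ICB and to 70.6, 15.7 and 24.7 FPKM with IgG, so that replicate 1 of the IgG lungs was high in both. That library was also the highest IgG lung in the summed T cell markers (28.25 FPKM, against 10.47 and 13.73 FPKM). The part of these cells was not tested. The interaction of tissue and treatment, an F test over the 6 tissues, gave Il2rb the smallest p of the 46 genes (F = 6.36, limma adjusted p = 0.132) and called none of them, where 0.0868% of all genes were called. At an unadjusted p under 0.05 that test had 3 of the 46 genes (6.52%, against 6.2% of all genes): Il2rb, Il33 (F = 3.88, adjusted p = 0.503) and Il13ra1 (F = 3.53, adjusted p = 0.576). The next 2 were Il27ra (F = 2.35, adjusted p = 0.862) and Il10rb (F = 2.28, adjusted p = 0.881). Without IgG replicate 1 of lung, Il2rb passed (F = 11.2, adjusted p = 0.00691), and without IgG replicate 3 of tumor, Il33 passed (F = 7.36, adjusted p = 0.0344).

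In liver, 4 tested genes had all ICB libraries above (3.26% of all genes) and 0 had them below (3.58%). Il1b had 3.14, 2.65 and 2.60 FPKM in ICB livers, against 0.548, 1.10 and 0.691 FPKM in IgG livers (1.10 ± 0.18, unadjusted p = 0.00029, limma adjusted p = 0.999). The lowest ICB liver was more than 1 FPKM above the highest IgG liver. Il18 had 20.8, 17.1 and 28.0 FPKM with ICB, against 6.72, 14.4 and 13.7 FPKM with IgG (0.90 ± 0.31). The antagonist Il1rn (0.41 ± 0.16) and Il2rb (0.43 ± 0.19) were the other 2, each at an adjusted p of 0.999.

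The summed macrophage and monocyte markers were at 1627, 728.2 and 1972 FPKM in ICB livers and at 447.8, 696.7 and 562.7 FPKM in IgG livers, with all 14 markers higher in mean log2 level with ICB and none at 0 in every library. Replicate 2 of the ICB livers, lowest in these markers, was also lowest in Il2rg, which had 5.47, 1.43 and 6.35 FPKM in ICB livers, against 0.835, 1.57 and 1.69 FPKM in IgG livers (1.06 ± 0.41). It was not low in Il1b. The part of these cells in the values was not tested. Without that library Il2rg passed (1.56 ± 0.22, adjusted p = 0.0478), and Il1b had an adjusted p of 0.081.

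**Figure D4:**
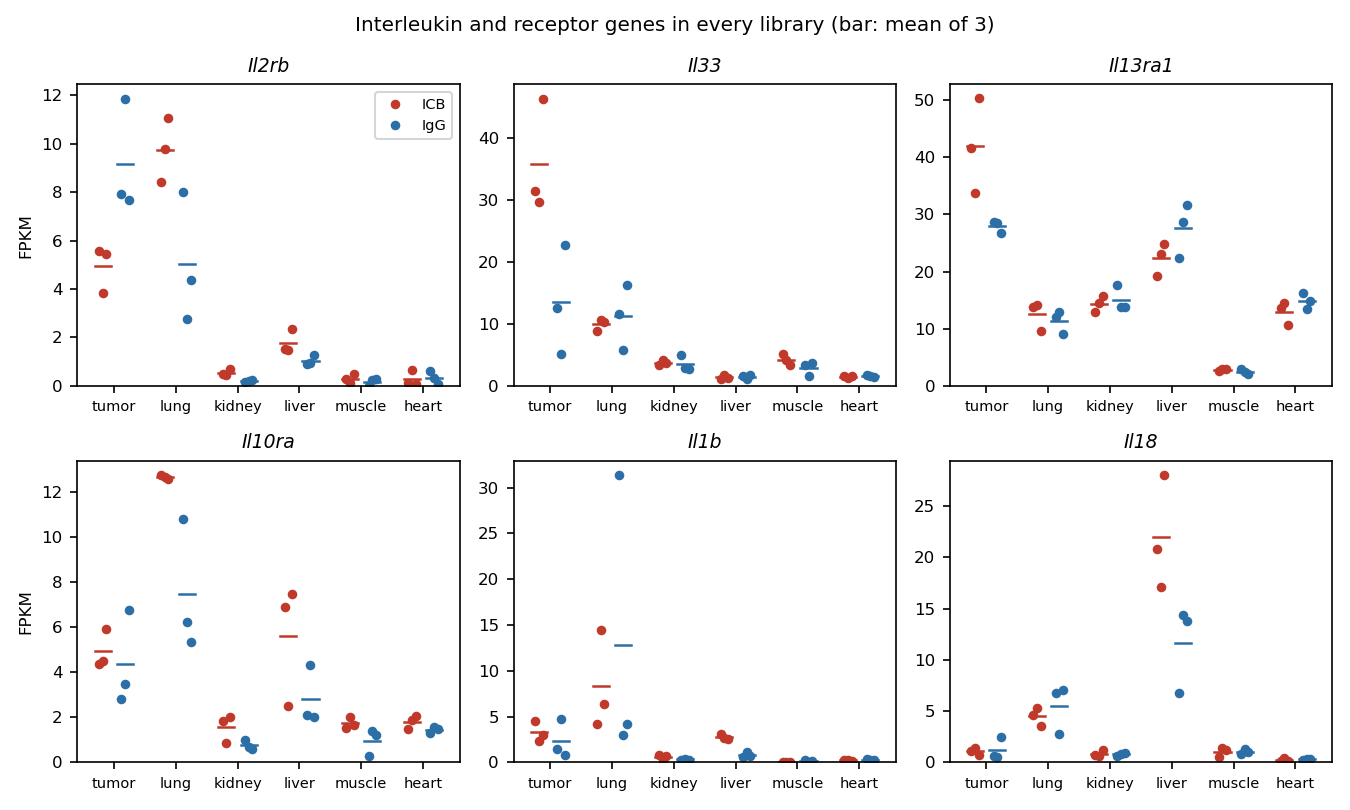
FPKM in every library of 6 genes chosen after their values were seen, by tissue, with ICB in red left of IgG in blue; points are libraries and bars are means of 3. Il2rb in the ICB libraries lies below IgG in tumor (4.95 against 9.15 FPKM on average) and above it in lung (9.76 against 5.03 FPKM).

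Il10ra stood above IgG in the mean of every organ. In lung it had 12.8, 12.7 and 12.6 FPKM with ICB, against 10.8, 6.25 and 5.33 FPKM with IgG (0.75 ± 0.23), without overlap. In muscle it had 1.55, 1.995 and 1.67 FPKM with ICB, against 0.268, 1.41 and 1.21 FPKM with IgG (0.53 ± 0.26), again without overlap. The libraries overlapped in kidney (0.52 ± 0.20), liver (0.75 ± 0.38) and heart (0.19 ± 0.11). The mean of the 5 organ differences was 0.55 ± 0.13 (unadjusted p = 0.00024, limma adjusted p = 0.067), which did not pass. None of the 12 genes tested in all 5 organs passed, where 0.258% of all 8924 genes did (0.213% higher and 0.0448% lower). At an unadjusted p under 0.05 Il10ra was the only one (8.33%, against 8.9% of all genes). The next by p with positive values were Il3ra (0.22 ± 0.11) and Il33 (0.07 ± 0.14), and those with negative values were Il4ra (-0.14 ± 0.11), Il1r1 (-0.09 ± 0.09) and Il15ra (-0.06 ± 0.08). Il10ra crossed the threshold when any 1 of 5 libraries was left out (adjusted p between 0.00376 and 0.0468): lung IgG replicate 1, kidney ICB replicate 2, liver ICB replicate 2, liver IgG replicate 2 or muscle IgG replicate 2.

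Most macrophage markers had the same direction as Il10ra. All 14 markers had a higher mean log2 level with ICB in kidney, liver and muscle, 13 of 14 in lung and 11 of 14 in heart. Their summed level in lung did not share that direction, at 2469, 2709 and 2179 FPKM with ICB against 3071, 2362 and 2577 FPKM with IgG. In kidney they summed to 95.6 to 210.1 FPKM with ICB against 79.5 to 89.4 FPKM with IgG, without overlap, as in liver. The sums overlapped in muscle, at 289.1 to 784 FPKM with ICB against 164.6 to 378.9 FPKM with IgG. They also overlapped in heart, at 308.9 to 484 FPKM with ICB against 243.7 to 337.3 FPKM with IgG. Of the 11 macrophage markers tested in all 5 organs, 2 rose in the mean, where 0.213% of all genes did. In lung the direction was not particular to macrophages. All 9 T cell markers were higher in mean log2 level in lung, kidney and muscle, 7 in heart and 5 in liver. NK cell markers ran from 7 of 8 higher in lung to 3 of 8 in heart, and B cell markers from 6 of 6 in lung to 2 of 6 in heart. Outside lung most of these markers were under the filter. It was passed by 9 T cell markers in lung, 1 in kidney and 0 in liver, muscle and heart. For NK cells 6 passed in lung and 0 in the other organs, and for B cells 6 in lung and 1 in each other organ. Of the macrophage markers 11 to 14 passed in each organ. Other marker sums also separated the groups. The erythroid markers summed to 212 to 349.3 FPKM with ICB against 497.4 to 692.9 FPKM with IgG in kidney and to 283.7 to 876.9 FPKM with ICB against 977.9 to 1517 FPKM with IgG in muscle. In heart they summed to 413.6 to 549.4 FPKM with ICB against 748.6 to 3884 FPKM with IgG, and 1 of the 5 markers, Hba-a2, fell in the mean of 5 organs (-1.69 ± 0.35, limma adjusted p = 0.0227). The lung epithelium markers summed to 20090 to 31160 FPKM in ICB lungs and to 33940 to 54960 FPKM in IgG lungs. The endothelium markers summed to 63.8 to 65.9 FPKM with ICB against 45.6 to 60.99 FPKM with IgG in kidney and to 131.4 to 139.5 FPKM with ICB against 115.4 to 129.5 FPKM with IgG in muscle. The groups also separated, with ICB above, in summed proliferation markers in lung and liver and in skeletal muscle and T cell markers in kidney. Fibroblast markers in heart and heart muscle markers in lung separated with ICB below. The share of all marker sums that separated was not worked out. The part of any of these cells in the Il10ra values was not tested. Of the partner genes whose symbols do not start with Il, a list of 20 (18 measured), 11 were tested in all 5 organs and 1 rose, Csf1r, the receptor of Il34 and of the macrophage growth factor Csf1 and itself 1 of the macrophage markers (0.65 ± 0.14, limma adjusted p = 0.0265). Csf2rb, the common beta chain that pairs with Il3ra and Il5ra, had 0.30 ± 0.11 (adjusted p = 0.299). In single tissues 0 of the 11 to 16 tested partner genes passed, and 0 of the tested members of the lists of JAK-STAT signaling, IL-1 receptor signaling and IL-17 receptor signaling passed in any tissue or in the mean of 5 organs.

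The remaining differences with the smallest p in each direction were as follows. In lung, Il17ra had 0.46 ± 0.20, Il15 -0.42 ± 0.24, Il10rb -0.34 ± 0.20 and Il1r1 -0.15 ± 0.13. In liver, the negative values were led by Il22ra1 (-0.69 ± 0.40), Il13ra1 (-0.28 ± 0.19) and Il6st (-0.20 ± 0.26). None of these 7 passed, and in each the ICB and IgG libraries overlapped.

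In kidney, Il15ra had 2.07, 1.57 and 1.98 FPKM with ICB, against 2.31, 2.74 and 2.19 FPKM with IgG (-0.25 ± 0.12, adjusted p = 0.992), the only tested gene without overlap there, where 5.22% of all genes had ICB below and 3.45% above. Kidney values for Il17rd (0.27 ± 0.20), Il3ra (0.18 ± 0.14), Il15 (-0.27 ± 0.15) and Il11ra1 (-0.18 ± 0.12) came with overlapping libraries. In muscle Il10ra and Il17rd (0.21 ± 0.15) had all ICB libraries above (6% of all genes) and 0 tested genes had them below (5.62%). Muscle values for Il2rg (0.44 ± 0.21), Il33 (0.46 ± 0.25), Il4ra (-0.39 ± 0.27) and Il17rc (-0.19 ± 0.21) overlapped. Il6ra in muscle had a difference of -0.43 ± 0.56, which was 0.29 without IgG replicate 2.

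In heart Il17rc was the only tested gene without overlap, with ICB above by 0.07 ± 0.08, where 4.79% of all genes had ICB above and 4.97% below. The heart chain Il10rb had 0.02 ± 0.10. Heart values for Il6ra (0.21 ± 0.13), Il11ra1 (0.09 ± 0.08), Il1r1 (-0.18 ± 0.10), Il13ra1 (-0.20 ± 0.13) and Il4ra (-0.17 ± 0.15) all overlapped.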

How the data were processed

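Per the labels' protocols, TRIzol RNA from flash-frozen tissue was made into Illumina TruSeq libraries. Per the submitters' processing notes, HISAT2 2.1.0, mm10 and edgeR were used. The sources used here do not give the counter or its strand setting. The authors deposited FPKM values for 18781 rows, and whole reads were recovered for 18781 of them (tolerance 0.001). The normalization factors that the values imply run from 0.532 to 1.595. Rows without a name (15, with at most 0.374% of the reads) and 3 symbols on 2 rows each were left out. No 2 libraries of a group (36 pairs) agreed within sampling noise.

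Log2(FPKM + 1) was tested with limma 3.58.1 (trend, two-sided, R 4.3.3), for rows with at least 1 FPKM in at least 3 of 6 libraries. Alternatives were a pseudocount or filter of 0.1, no filter, median-of-ratios scaling, array weights, limma-voom, 1 fit of 36 libraries, a replicate block, and each library left out in turn. Library totals, limma-voom with the 0.1 filter and the 130-base promoter windows were chosen after seeing the data. Differences are named for the 3 smallest p each way per tissue and in the organ mean and the 5 smallest of the interaction, and levels for the 3 highest members and largest difference per tissue, and other genes were picked with their values in view. The members and lists were chosen with earlier results of these data known. The procedure was tested on simulated data. Python 3.11.15 and matplotlib 3.10.9 were also used.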

Additional observations from a re-analysis of the deposited data

Results flagged for a closer look

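Il2rb and Il17rc had treatment groups that did not overlap in more than 1 tissue, in opposite directions. Il2rb had all ICB libraries above all IgG libraries in lung and below them in tumor, and its log2 difference in lung minus that in tumor was 1.68. In liver its ICB libraries also lay above (1.53, 1.46 and 2.34 FPKM with ICB, against 0.921, 0.941 and 1.27 FPKM with IgG), and the difference in liver minus that in tumor was 1.19. These pairs of tissues were not tested on their own, and the interaction over all 6 tissues gave Il2rb an adjusted p of 0.132 with limma. Il17rc lay above in heart (3.66, 3.93 and 3.63 FPKM with ICB, against 3.53, 3.603 and 3.41 FPKM with IgG) and below in tumor (19.6, 18.1 and 17.9 FPKM with ICB, against 21.0, 20.5 and 26.9 FPKM with IgG), a gap between the log2 differences of 0.34 that was not tested on its own.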

How the results depend on the processing

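Over 62 results, 1317 of 1338 recomputed values were classed as the same. A difference had to keep its direction and its side of the threshold, and an F statistic its side of the threshold. A count of genes only had to stay close to its main value. The count called in lung against the other 5 tissues, for example, ran from 33 to 41, where the main count was 36. In 1 fit of 36 libraries the tumor count by treatment was 1 in place of 0 (Il33, 1.52). Shares of all genes called were not worked out for the alternatives. Leaving out single libraries moved the count between 0 and 1 in liver, in the mean of 5 organs and in the interaction, and gave ranges of 0.49 to 0.63 for Il10ra in the organ mean, 0.63 to 1.26 for Il2rb in lung and 1.01 to 1.98 for Il33 in tumor. The interaction count was also 1 without liver ICB replicate 2. In muscle, leaving out single libraries gave -0.859 to 0.287 for Il6ra (positive without IgG replicate 2) and -0.302 to 0.016 for Il17rc (positive without IgG replicate 3), where both were negative with all libraries. The cause was not tested. Title numbers recur across tissues but not between treatments, so no block was possible within a tissue. Libraries of different tissues with the same number correlated at a median of 0.15 (39 of 56 pairs over 0.1), against -0.0395 for other numbers (48 of 214 pairs over 0.1). Not every pair was over 0.1 and the labels do not say what a number marks, so the fit without the block was kept. With the replicate block the counts stayed at 41 of 46 in tumor and 0 in the organ mean (Il10ra 0.57, adjusted p = 0.159) and 0 in the interaction (Il2rb adjusted p = 0.084), and it changed no call.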

Other observations

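Below the filter, limma-voom on the recovered reads with the filter at 0.1 FPKM gave further values for low genes, none of which passed. Il7r, the IL-7 receptor chain of lymphocytes, had 28, 25 and 29 reads in ICB kidneys, against 3, 4 and 7 reads in IgG kidneys, without overlap (log2 difference 2.32 ± 0.47, SE, n = 3 per group, adjusted p = 0.819). The summed T cell markers were at 2.87 to 4.04 FPKM in ICB kidneys and at 1.62 to 2.49 FPKM in IgG kidneys. All 9 markers were higher in mean log2 level, but only 1 passed the filter of 1 FPKM there. The part of T cells was not tested. Il2rb in kidney had a difference of 1.33 ± 0.37 (adjusted p = 0.984), with 0.496, 0.442 and 0.688 FPKM with ICB and 0.167, 0.196 and 0.262 FPKM with IgG. In heart, Il27ra, the IL-27 receptor chain, had 0.704, 0.768 and 0.385 FPKM with ICB and 1.12, 1.16 and 0.926 FPKM with IgG (-0.86 ± 0.29, adjusted p = 0.99). Il10 in lung had 0.415, 1.199 and 0.0465 FPKM with ICB and 0.0768, 0 and 0.0443 FPKM with IgG, so that 2 of 3 ICB libraries stood above all IgG libraries.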
